A study of Mus musculus with 4 samples.

Results

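The effect of metformin in wild-type stomach was read as the difference between 2 of the 4 arrays of the series: the array of wild-type mice given metformin minus the array of wild-type mice given saline. Each gene of the array was a member, and 11090 of 22180 named genes lay at or above the median expression of all genes (5.03 on the log2 scale, mean over the 4 arrays) and were described. RNA was taken from the gastric corpus, the acid-secreting part of the stomach. The wild-type mice (WT) were adult C57BL/6 mice aged 8 to 10 weeks, and each day for 14 days they were injected intraperitoneally with metformin (300 mg/kg) or with saline. The other 2 arrays came from mice of the same age and treatments that carried Atp4b-cre with Prkaa1fl/fl and Prkaa2fl/fl, called knockout (KO) below. In these mice the H+/K+ ATPase beta subunit promoter drives Cre in parietal cells, so other cells of the corpus keep the alpha 1 and alpha 2 subunits, which form the catalytic part of AMP-activated protein kinase (AMPK). FVB was part of the mixed strain background of the KO mice, so strain and genotype differed together. How many animals stood behind an array was not given in the sources used here. Each group had 1 array, and differences therefore have no replicate error and are given as sizes without a test.

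Metformin is a biguanide used to treat type 2 diabetes. It lowers the activity of respiratory complex I in mitochondria and thereby activates AMPK, which senses a low energy charge of the cell, restrains lipid and protein synthesis and favours mitochondrial biogenesis through the coactivator PGC-1 alpha. Glands of the corpus hold parietal cells, which are packed with mitochondria to drive the proton pump, together with chief cells that secrete pepsinogen, mucous neck cells, surface pit cells, endocrine cells and tuft cells.

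All 4 arrays had similar overall brightness, with medians of 4.40 to 4.55 over 41345 probe sets. Over the genes kept, the 2 WT arrays had a Pearson correlation of 0.963, within the range of the 6 pairs of arrays (0.905 to 0.971). The lowest value was between the 2 vehicle arrays (0.905) and the highest between the 2 metformin arrays (0.971). KO vehicle had 0.955 with WT metformin and 0.95 with KO metformin, and WT vehicle had 0.955 with KO metformin. Over all genes kept, WT vehicle was thus not the only array far from others, but it was most often the extreme among genes past 2-fold. Of the 86 genes at least 2-fold higher with metformin, the WT vehicle array had the lowest of the 4 values for 81, and the WT metformin array had the highest for 32. Of the 103 genes at least 2-fold lower, the WT vehicle array had the highest value for 96, and the WT metformin array had the lowest for 26. Because these genes were chosen by their difference between the WT arrays, the counts describe them only. Why the WT vehicle array was so often the extreme was not tested. Parietal markers were at the top of the range on both WT arrays (Atp4b 13.44 and 13.25, Atp4a 13.22 and 12.97), as was the chief cell zymogen Pgc (14.00 and 13.99, where the highest deposited value was 14.02). None of 6 B cell markers and none of 11 neutrophil and eosinophil markers reached the filter on expression. The Y-linked genes Kdm5d (6.30 on WT vehicle and 5.75 on WT metformin) and Eif2s3y (7.73 and 7.38) were measured on both WT arrays, and Xist was under the filter value on both.

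Metformin and vehicle differed by little for most genes. The median difference over all genes kept was -0.14 (log2, metformin minus vehicle), the middle 50% of genes lay between -0.36 and 0.10, and 65.3% were below 0. A difference of at least 1 on this scale, which is 2-fold, was reached upward by 86 of 11090 genes (0.775%) and downward by 103 (0.929%), 189 genes in all (1.7%). Among 10548 protein-coding genes the numbers were 34 higher (0.322%) and 100 lower (0.948%). Most genes on the higher side were therefore not protein coding, and 33 of the 86 were small nucleolar RNAs by their RefSeq class. Since 12 of the higher genes lay under 5.03 on the WT vehicle array and 10 of the lower genes lay under it on the WT metformin array, their folds are not read as exact. In bulk tissue, fewer cells of a type and less RNA per cell cannot be told apart.

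Small nucleolar RNAs (snoRNAs) were higher on the WT metformin array in nearly every case. They guide the chemical modification of ribosomal and spliceosomal RNA and are mostly cut from the introns of host genes. The list of them by name is slightly wider than the RefSeq class, since it also takes in guide RNAs of Cajal bodies. Of the 63 genes of that list kept, 61 were above the median of all genes and 35 were at least 2-fold higher, against 0.775% of all genes. Their median difference was 1.13. Snord22 was at 7.86 on the WT vehicle array, 10.13 on WT metformin, 9.02 on KO vehicle and 7.70 on KO metformin, a WT difference of 2.27. Snora44 was at 7.57, 9.70, 9.57 and 8.36 on the same arrays in that order, and Snora15 at 5.79, 7.83, 5.51 and 5.33. The WT metformin array was thus the highest of the 4 for these RNAs, which had the largest WT differences of the list. Among them the WT vehicle array was the lowest for Snora44 only. Some other snoRNAs past 2-fold had WT vehicle lowest and KO vehicle highest, such as Snord82 (9.97, 11.21, 11.86 and 10.85) and Snord49a (8.85, 10.53, 11.16 and 10.16). Over all 83 snoRNAs measured, the median level was 6.50, 7.54, 7.23 and 7.12 on the arrays in that order. At the other end of the list, Snora23 had a difference of -0.21, Snord53 -0.16 and Snora78 0.09.

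Other classes of non-coding RNA were mixed in size. Both Y RNAs, small RNAs bound by the Ro protein, had a median of 1.11. The 4 guide RNAs, also in the list by name, had a median of 0.88, and 3 RNase P type RNAs had the same value to this precision (0.88). Pseudogenes had a median of 0.44 over 53 genes, 6 of them at least 2-fold higher, against 0.775% of all genes. The 235 long non-coding RNAs had a median of -0.04, close to protein-coding genes at -0.15. Genes that host snoRNAs had a median of 0.19 over 14 genes, 12 of them above the median of all genes. Their highest member was Snhg17 at 1.44 (6.14, 7.58, 7.65 and 6.99 on the 4 arrays), whose other probe sets gave 0.24 and -0.16. Chosen after their values were seen, the 5S ribosomal RNA gene n-R5s136 had a difference of 2.49, the RNase P RNA Rprl2 1.87 and the Y RNA Rny1 1.38.

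MicroRNA genes, whose short mature products pair with messenger RNAs through a stretch called the seed, had a median of 0.28 over 78 genes, with 65 above the median of all genes. Over all 483 microRNA genes measured, most of them under the filter, the median was 0.08. The 3 that were at least 2-fold higher, where 0.775% of all genes were, were Mir5112 (1.55), Mir3095 (1.11) and Mir181d (1.07). Mir181d went from 6.34 on WT vehicle to 7.40 on WT metformin, with 7.54 on KO vehicle and 6.75 on KO metformin. Mir3095 was at 4.25, 5.35, 7.18 and 6.65, so its WT vehicle level was under the filter value. These array values do not separate a precursor from its mature products. The mature sequences of both, from RefSeq on GRCm38.p6 with the seed (bases 2 to 8) in capitals, are shown because they identify what the names stand for, and their seeds differ. Mir181d lies on the minus strand, with the 3p product at chr8:84178720-84178740 and the 5p product at chr8:84178759-84178781, and the Mir3095 3p product lies on the minus strand at chr4:58441023-58441045.
mmu-miR-181d-5p: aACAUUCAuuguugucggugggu
mmu-miR-181d-3p: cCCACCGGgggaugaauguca
mmu-miR-3095-3p: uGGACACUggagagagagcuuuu

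Gene length went with the difference also among protein-coding genes. Genes were put in 5 groups of equal number by their span in RefSeq. In the group of shortest span (up to 8.395 kb) the median was 0.06. It was -0.10, -0.16, -0.23 and -0.25 in the following groups, the last of which began at 71.914 kb. The group of shortest span held 16 of the 34 higher protein-coding genes and that of longest span held 1, while the 100 lower genes were spread as 16, 12, 26, 23 and 23. The median span was 10.3 kb for the higher protein-coding genes, 28.2 kb for the lower ones and 24.8 kb for all. In KO mice the medians of the span groups ran the opposite way, from 0.02 in the shortest to 0.18 in the longest. Expression level was a weaker divider: over 5 groups of mean level the medians were -0.04, -0.11, -0.16, -0.20 and -0.16 from low to high. What produced the trend on length was not tested. For some of the lists below, and not for all, the value after its removal is also given.

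**Figure D1:**
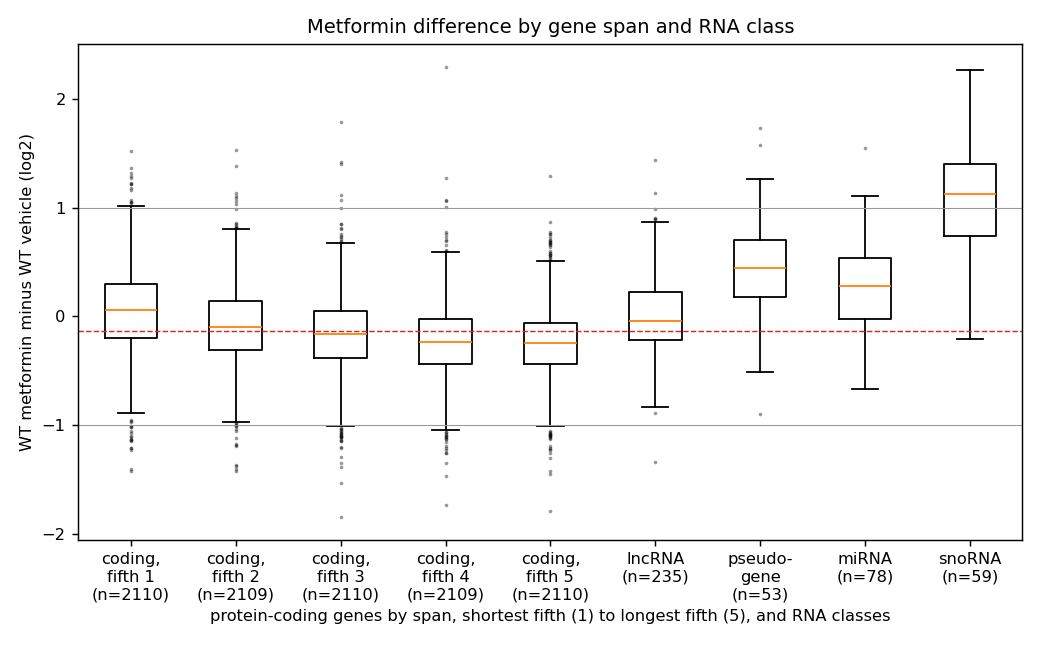
WT metformin minus WT vehicle (log2, vertical axis) for protein-coding genes in 5 groups of gene span and for 4 classes of non-coding RNA; boxes span the middle 50% of genes with the median as a line, whiskers reach 1.5 box lengths, the dashed line is the median of all genes and grey lines mark 2-fold. Medians step down from 0.06 in the coding group of shortest span to -0.25 in that of longest span, and snoRNAs have a median of 1.13.

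The plot of differences by span and class shows that the boxes of the protein-coding groups overlap widely, so span separates medians and not single genes. SnoRNAs are the exception, with a box that lies above those of the coding groups.

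The respiratory chain was higher with metformin in WT, and the nuclear-encoded subunits differed by less than 2-fold with 3 exceptions. Over 70 subunits of the complexes and of the ATP synthase the median was 0.34, which is 0.48 above the median of all genes, and 64 of 70 lay above that median. The 3 at least 2-fold higher (0.775% of all genes) were Cox7a2, Cox7b and Atp5e. The subunits were also higher than coding genes of like span: the 42 in the group of shortest span had a median of 0.38 against 0.06 for all coding genes there, and the 28 longer ones had 0.23. After cyclic loess and removal of the length trend the list was 0.33 above the median of protein-coding genes.

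Complex I, the NADH dehydrogenase that metformin acts on, had 29 of 31 subunits above the median of all genes and a median of 0.34. Its highest were Ndufb7 at 0.83 (7.39 on WT vehicle, 8.21 on WT metformin, 8.52 on KO vehicle and 7.83 on KO metformin), Ndufb6 at 0.79 and Ndufa7 at 0.79, which are accessory subunits. Its lowest were Ndufs1 at -0.20, which carries iron-sulphur clusters of the catalytic core, Ndufa10 at -0.14 and Ndufab1 at -0.06. None of the 31 reached 2-fold. Complex II, the succinate dehydrogenase, had Sdhb and Sdhd at 0.34, Sdhc at -0.10 and Sdha at -0.18, and its assembly factor Sdhaf4 was 1.09 higher (4.60, 5.69, 5.61 and 5.12). Complex III, which passes electrons to cytochrome c, had a median of 0.13, from Uqcrh at 0.88 to Uqcrc2 at -0.29.

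Complex IV, the cytochrome c oxidase, had the largest shift of the 5 complexes. All 11 subunits lay above the median of all genes, and their median was 0.73. Cox7a2 was at 8.98 on WT vehicle and 10.04 on WT metformin, with 9.90 on KO vehicle and 9.36 on KO metformin. Cox7b was at 9.11, 10.16, 11.10 and 9.88, although a second, dimmer probe set (4.57, 4.61, 5.58 and 5.49) gave 0.05. Cox4i1 was at 9.75, 10.68, 11.15 and 10.50. In each of these subunits the WT vehicle array was the lowest of the 4. The smallest differences in the complex were Cox7c at 0.01, Cox6a1 at 0.14 and Cox8a at 0.42. The ATP synthase, which makes ATP from the proton gradient, had a median of 0.25 over 15 subunits. Atp5e, its epsilon subunit, was 1.29 higher (7.36, 8.65, 9.46 and 8.20), although a second probe set gave 0.49, and the catalytic core subunits Atp5a1 (-0.15) and Atp5c1 (-0.18) were not higher.

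**Figure D2:**
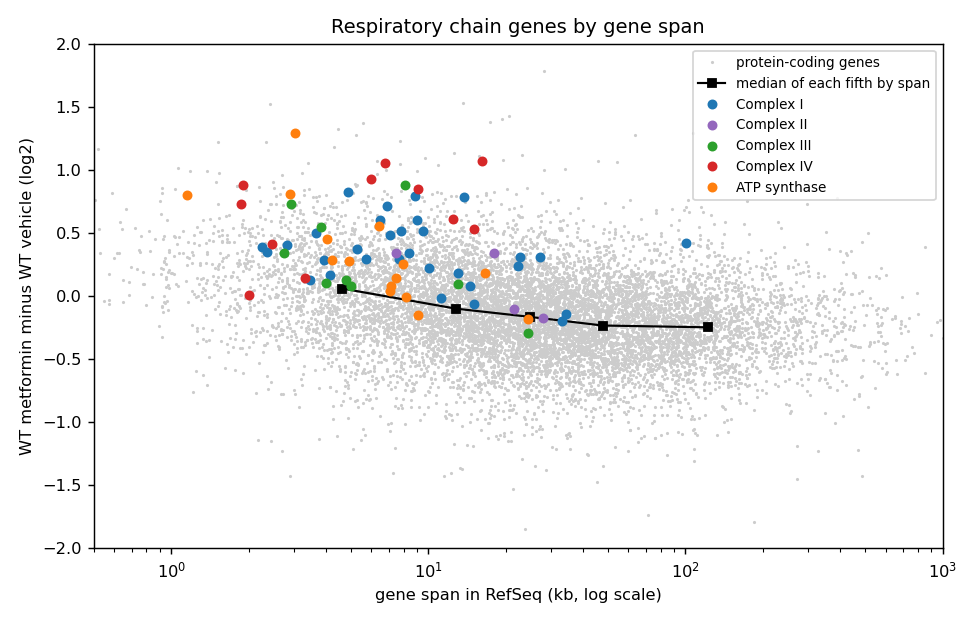
WT metformin minus WT vehicle (log2, vertical axis) against gene span in RefSeq (kb, log scale) for nuclear-encoded respiratory chain subunits, coloured by complex, over all protein-coding genes kept in grey within the axis limits; black squares are the medians of the 5 groups of span. Most coloured points lie above the black line, with the 11 complex IV subunits between 0.01 and 1.07.

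In the plot of respiratory genes by span, the subunits at or below the medians of similar span include the core subunits Ndufs1, Sdha, Uqcrc2, Atp5a1 and Atp5c1. Of 10 genes encoded by mitochondrial DNA, 9 had differences from 0.05 (ND5) to 0.14 (ND1). The exception was ND6, the only one of the 10 on the light strand, which was at 9.98 on WT vehicle, 11.15 on WT metformin, 11.54 on KO vehicle and 10.71 on KO metformin. ND6 was thus also dimmer than the median of the 10 genes, 13.42 on WT vehicle and 13.54 on WT metformin. The highest deposited value was 14.02, and whether signals so near it can show larger differences was not tested. Relative to the median of all genes this list stood at 0.23, and with the length trend removed it stood at -0.27, so its direction depends on that step.

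Most genes upstream of mitochondrial biogenesis did not share the shift. Of 13 genes in the list of PGC-1 coactivators and related receptors, 11 lay below the median of all genes and 2 above. Ppargc1a, the coactivator PGC-1 alpha, was at 8.61 on WT vehicle and 8.10 on WT metformin (-0.51), and Ppargc1b differed by -0.16. Of the orphan receptors that work with it, Esrrg differed by -0.60 (9.88 and 9.28), Esrrb by -0.31 and Esrra by 0.67 (6.74 and 7.41). The citric acid cycle, which feeds electrons to the chain, had a median of -0.26 over 19 genes with 6 above the median of all genes, from Idh3a at -0.64 to Suclg1 at 0.46. Mitochondrial solute carriers had a median of -0.27 over 36 genes, with 24 of them below the median of all genes and 2 at least 2-fold lower (0.929% of all genes were). These were Slc25a21, an oxodicarboxylate carrier (6.32 and 4.89), and Slc25a12, an aspartate-glutamate carrier (10.36 and 9.28).

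Protein synthesis and breakdown genes were on the higher side. Mitochondrial ribosomal proteins had a median of 0.18 over 68 genes, with 61 above the median of all genes and 1 at least 2-fold higher, where 0.775% of all genes were. That one was Mrps16 at 1.52 (5.60, 7.12, 7.37 and 6.94), whose second probe set gave 0.70, and the lowest was Mrpl49 at -0.72. Cytosolic ribosomal proteins had a median of 0.45 over 51 genes, with 47 above the median of all genes. The 3 at least 2-fold higher (0.775% of all genes) were Rps19 (1.28), Rps24 (1.07) and Rpl41 (1.01). The lowest were Rps23 (-0.57), Rpl29 (-0.27, although a second probe set gave 0.22) and Rpl5 (-0.20). Ribosomal protein genes have many near-identical pseudogenes whose transcripts can bind the same probes, so single values in this family are uncertain. Proteasome subunits had a median of 0.22 over 35 genes and none reached 2-fold. The highest were the core subunit Psma7 (0.78), Psmd14 (0.69) and the immunoproteasome subunit Psmb8 (0.65), and the lowest were the regulatory subunits Psmd5 (-0.72), Psmd12 (-0.60) and Psmd1 (-0.38). With the length trend removed, the cytosolic ribosome stood 0.41 and the proteasome 0.38 above the median of protein-coding genes.

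Interferon-stimulated genes, which cells switch on through STAT and IRF factors after viral or interferon signals, were higher in the majority. Of 26 kept of 35 measured, 21 were above the all-gene median, the difference had a median of 0.20, and 1 was at least 2-fold higher, against 0.775% of all genes. That gene was Oas2, an antiviral oligoadenylate synthetase, at 5.26 on WT vehicle, 6.34 on WT metformin, 7.08 on KO vehicle and 5.60 on KO metformin. Tap2, a peptide transporter for antigen presentation, differed by 0.67, Psmb8 by 0.65 and the antiviral protein Ifit1 by 0.62 (5.27, 5.89, 6.72 and 5.86). The RNA sensor Ddx58 (-0.29), Xaf1 (-0.26) and Ifi27l2b (-0.37) were the lowest. Among 14 genes of antigen presentation by major histocompatibility molecules, H2-T23 was the highest at 0.72 (5.25, 5.97, 6.25 and 5.89), and Mr1, which presents vitamin metabolites, was 1.10 lower on the log2 scale at 8.72, 7.62, 5.97 and 7.75.

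The interferon-stimulated response element is bound by IRF and STAT factors, and was searched as GAAA, any 2 bases and GAAA, on both strands, from 250 bases before to 50 bases after each start site in RefSeq. Of 22 promoters listed for 19 of the interferon-stimulated genes, 10 (45.5%) held it, against 3.44% of 32851 promoters. The promoters of H2-T23, Ifit1 and Oas1g are shown (180 bases before the start on GRCm38.p6, motif in capitals on either strand) because their genes were higher and hold the element at different distances. H2-T23 comes from the antigen presentation list, of whose 12 promoters 2 held the element. Oas2, Tap2 and Psmb8, the highest interferon-stimulated genes, were not among those found to hold it. H2-T23 is on the minus strand with the window at chr17:36032702-36032881. Ifit1 is on the plus strand with the window at chr19:34640709-34640888. Oas1g, another oligoadenylate synthetase gene (4.67, 5.24, 5.86 and 5.45, a difference of 0.57), is on the minus strand with the window at chr5:120887614-120887793, and its 2 matches overlap.
H2-T23: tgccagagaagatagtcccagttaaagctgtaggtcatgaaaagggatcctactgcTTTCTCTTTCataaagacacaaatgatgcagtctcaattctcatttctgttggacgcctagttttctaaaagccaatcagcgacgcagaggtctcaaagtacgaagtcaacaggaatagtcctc
Ifit1: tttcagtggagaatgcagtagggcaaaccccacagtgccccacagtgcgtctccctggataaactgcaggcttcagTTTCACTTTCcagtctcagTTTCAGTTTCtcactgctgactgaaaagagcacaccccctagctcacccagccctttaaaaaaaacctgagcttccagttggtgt
Oas1g: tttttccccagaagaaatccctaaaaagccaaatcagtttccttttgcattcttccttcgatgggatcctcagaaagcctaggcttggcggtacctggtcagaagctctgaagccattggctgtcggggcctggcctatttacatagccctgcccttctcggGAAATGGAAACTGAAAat
A match is a description of the letters and not of binding. The lower members Ddx58 and Ifih1 (-0.19) also hold the element, so holding it was not confined to higher members.

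Extracellular matrix genes were higher against their length. The 38 collagen and laminin genes have a median span of 114 kb, where coding genes of the longest span group had a median of -0.25, yet their median was 0.23 and 30 lay above the median of all genes. With the length trend removed the list stood 0.39 above the median of protein-coding genes. Col1a1, the main chain of fibrillar collagen, was at 8.50 on WT vehicle, 9.32 on WT metformin, 9.39 on KO vehicle and 9.26 on KO metformin, and Col3a1 was at 8.12, 8.82, 8.67 and 8.49. The basement membrane chain Col4a1 was at 6.48, 7.18, 6.68 and 6.25. The lowest were Lama4 (-0.46), Col15a1 (-0.33) and Lamb2 (-0.31), and none of the 38 reached 2-fold. General fibroblast markers, some of them collagens, had a median of -0.06 over 10 genes with 7 above the median of all genes, and smooth muscle genes had 0.12 over 14 genes with 11 above the median of all genes.

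Among the lists on the lower side, receptors that set acid secretion and gastric motility stood furthest from the median of all genes. They had a median of -0.66 over 12 genes, 10 of them below that median and 2 at least 2-fold lower, where 0.929% of all genes were. Vipr2, a receptor for vasoactive intestinal peptide, was at 8.68 on WT vehicle, 6.94 on WT metformin, 6.10 on KO vehicle and 6.62 on KO metformin, and was 3.33-fold lower. Glp1r, the receptor for the incretin hormone GLP-1, was at 11.40, 10.28, 8.65 and 11.40. Both genes had their highest or joint highest value on the WT vehicle array. Further members were the cholecystokinin receptors Cckar (-0.88) and Cckbr (-0.78, also the gastrin receptor of parietal cells), the prostaglandin receptor Ptger3 (-0.71), the muscarinic receptor Chrm3 (-0.64) and the histamine receptor Hrh2 (-0.60). Only the secretin receptor Sctr (0.22) was above 0. The list stood 0.41 below the median of protein-coding genes with the length trend removed. Cyclic AMP phosphodiesterases, which end signals of such receptors, had a median of -0.40 over 10 genes, with Pde7b at 8.62, 7.39, 5.70 and 7.13.

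Parietal cell genes were lower by less. All 25 markers passed the filter, none reached 2-fold, 20 lay below the median of all genes and their median difference was -0.32. The lowest were the water channel Aqp4 (8.98 and 8.12 on the WT arrays, -0.87), the potassium channel Kcnj16 (11.66 and 10.82, -0.84) and Cckbr. The highest were Ldhb (0.21), creatine kinase Ckb (0.05) and the exchanger Slc9a2 (0.00). Genes of the proton pump and its potassium channel were close to the median of all genes: Atp4a differed by -0.25, Atp4b by -0.19, Kcne2 by -0.24, Kcnq1 by -0.21 and intrinsic factor Cblif by -0.17.

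Of the other gland lineages, the chief, pit, neck and endocrine cell lists had medians from -0.12 to 0.04, the tuft cell list was higher and the stem cell list lower. Chief cell genes had a median of -0.04 over 8 genes, and the chief cell factor Bhlha15 differed by -0.04. Surface pit cell genes had 0.04 over 11 genes, with Krt20 at 0.37, Tff1 at 0.32, Muc5ac and Gkn1 at 0.04 and the claudin Cldn18 at -0.56. Mucous neck cells split. A4gnt, the enzyme that caps neck cell mucin, was at 9.57 on WT vehicle, 8.54 on WT metformin, 8.10 on KO vehicle and 9.28 on KO metformin. The neck mucin Muc6 was at 11.45, 10.82, 10.41 and 11.62, while the trefoil factor Tff2 was at 11.64, 12.62, 12.53 and 12.34. The mucin and its enzyme were thus lower and the neck peptide higher on the WT metformin array. Gkn3, on both the chief and the neck cell lists, differed by -0.10. Endocrine genes had a median of -0.12, with Slc18a2 (-0.60), Hdc (-0.46) and Chga (-0.40) lowest. Sst (-0.02) and Ghrl (-0.12) stayed close to 0, and Gast differed by 0.20. Tuft cell genes had a median of 0.28 over 6 genes, all 6 above the median of all genes and led by Rgs13 (0.61). Stem and progenitor genes had -0.31 over 13, with 10 below the median of all genes, much like the parietal list. Shh differed by 0.37 and was the highest of 12 hedgehog pathway genes, whose median was -0.33. Of the stromal lists, interstitial cells of Cajal, the pacemakers of the gut wall, had -0.60 over 4 genes, namely Kit (-0.83), Gja1 (-0.66), Etv1 (-0.54) and Ano1 (-0.31). Mast cell genes had -0.41 over 6, from Cpa3 at -0.88 to Mcpt2 at 1.12. Over all 12 mast cell genes measured the median difference was -0.19, and their median level was under the filter value on both WT arrays.

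Markers of squamous epithelium, which lines the neighbouring forestomach, were also higher. Of 15 measured, 6 passed the filter, all 6 above the median of all genes with a median of 0.53 in WT. In KO mice their median was 2.40 with 5 at least 2-fold higher, against 2.44% of all genes. With the filter taken on the WT arrays fewer than 4 passed. The 6 were therefore kept partly through their KO values, and their KO median describes them only. Over all 15 the median level was 3.83 on WT vehicle, 3.95 on WT metformin, 4.46 on KO vehicle and 5.76 on KO metformin, and the median WT difference was 0.47. These markers thus lay under the filter value as a list on both WT arrays and stood apart on the KO metformin array. Their part in the other differences was not tested.

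Transcription factors and signal attenuators that answer glucocorticoids, light-dark timing and acute stimuli were among the lowest genes. Of 18 glucocorticoid-responsive genes kept, 4 were at least 2-fold lower (0.929% of all genes were), 13 lay below the median of all genes, and the median was -0.43. Like the other lists, this list was chosen with earlier results of these data known, so its counts describe its members only. Bcl6, a transcriptional repressor, was the lowest named gene of the comparison, at 7.17 on WT vehicle, 5.32 on WT metformin, 4.84 on KO vehicle and 5.40 on KO metformin, 3.61-fold lower. Zbtb16, a related repressor, was at 8.05, 6.26, 6.39 and 6.17, and Dusp1, a phosphatase that switches off MAP kinases, was at 8.52, 7.10, 6.63 and 7.21. For Bcl6, Zbtb16 and Dusp1 the other 3 arrays lay close together, and the WT vehicle array lay above them. Fkbp5, a chaperone of the glucocorticoid receptor, differed by -0.83 (6.57, 5.74, 6.47 and 6.35). The highest of the list were Mt2 (0.15), Hif3a (0.14) and Lcn2 (0.04).

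Clock genes form a feedback loop in which BMAL1 and CLOCK activate repressors that then silence them. The repressors and outputs had a median of -0.55 over 12 genes, with 3 at least 2-fold lower against 0.929% of all genes. Dbp was at 7.95 on WT vehicle, 6.74 on WT metformin, 7.67 on KO vehicle and 8.80 on KO metformin, Nr1d1 at 10.28, 9.07, 8.70 and 9.78, and Per1 at 8.67, 7.48, 7.93 and 8.71. For Dbp and Per1 the WT metformin array was the lowest of the 4. The activators and cryptochromes had a median of -0.27 over 7 genes, with Arntl, which encodes BMAL1, at -0.55 and the repressor Nfil3 at 0.57. The time of day of collection was not given in the sources used here. Immediate early genes had a median of -0.28 over 19, and 3 were at least 2-fold lower, against 0.929% of all genes: Dusp1, Nr4a1 (7.04, 5.89, 5.76 and 6.17) and Egr1 (6.93, 5.80, 6.05 and 6.15). Other members were higher, with Junb at 0.29, Atf3 at 0.27 and Klf4 at 0.18.

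Promoters of Per1 and Dusp1 are shown because they carry textbook elements of clock and cyclic AMP control and belong to genes at least 2-fold lower. The E-box CACGTG, bound by BMAL1 and CLOCK, was in 5 of 12 promoters listed for the clock repressors and in 7.15% of all promoters. The D-box TTATGNAA, bound by Dbp, was in 2 of those 12 and in 3.39% of all. The cyclic AMP response element TGACGTNA was in 3 of 27 promoters of the glucocorticoid-responsive genes and in 2.93% of all. A glucocorticoid response element, AGAACA and TGTNCT with 3 bases between them, was in 1 of those 27, that of Sgk1, and in 0.0396% of all. All were searched on both strands of the same windows. The 180 bases before the start are given on GRCm38.p6, with the E-box and the D-box of Per1 (plus strand, chr11:69098769-69098948) and the cyclic AMP response element of Dusp1 (minus strand, chr17:26508473-26508652) in capitals. The Dusp1 window also holds the letters of the E-box, left in lower case.
Per1: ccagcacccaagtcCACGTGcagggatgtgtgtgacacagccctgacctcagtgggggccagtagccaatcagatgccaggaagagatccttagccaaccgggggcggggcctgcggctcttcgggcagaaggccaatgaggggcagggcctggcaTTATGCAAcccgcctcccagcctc
Dusp1: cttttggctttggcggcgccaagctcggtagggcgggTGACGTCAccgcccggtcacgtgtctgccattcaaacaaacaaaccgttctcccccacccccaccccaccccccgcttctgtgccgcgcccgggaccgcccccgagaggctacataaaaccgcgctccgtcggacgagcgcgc

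Energy sensing and metabolic genes were near or below the median of all genes. The 11 AMPK subunits and upstream kinases had a median of -0.34, and 7 lay below the median of all genes. Relative to that median the list stood at -0.21, and at -0.15 with the length trend removed. Prkaa2, the alpha 2 catalytic subunit, was at 8.90 on WT vehicle and 8.02 on WT metformin (-0.88), and Prkaa1, the alpha 1 subunit, was at 9.46 and 8.90 (-0.55). The upstream kinase Stk11 differed by -0.34 and the beta subunits Prkab1 and Prkab2 by -0.38 and -0.36. Prkag1 differed by -0.31, and Prkag2 and Camkk2 by -0.13. Deptor, an inhibitor of the growth kinase mTOR, was at 9.74 and 8.66, although a second probe set was at 7.90 and 7.84 (-0.07). Sesn2, a stress-induced regulator of that kinase, differed by -0.82. The list of mTOR pathway and autophagy genes was close to all genes, with a median of -0.20 over 25 genes. Of these, 1 was at least 2-fold lower, against 0.929% of all genes. Catalase, the peroxisomal enzyme that removes hydrogen peroxide, was at 12.65 on WT vehicle, 11.44 on WT metformin, 9.75 on KO vehicle and 11.25 on KO metformin. Its list of antioxidant genes did not go with it, with a median of 0.05 over 16 genes and 11 above the median of all genes. Catalase was the 1 member at least 2-fold lower, against 0.929% of all genes. Cholesterol synthesis had a median of -0.31 over 18 genes, fatty acid synthesis -0.24 over 13, fatty acid oxidation -0.13 over 18 and glycolysis -0.17 over 15, and none of these genes reached 2-fold. Cpt1a, which admits fatty acids to mitochondria, differed by -0.48 and hexokinase Hk2 by -0.09. Genes studied for metformin in liver were under the filter in this tissue, namely the gluconeogenic genes Pck1 (3.81 and 4.18) and G6pc (3.67 and 3.70), and the metformin exporter Slc47a1 (4.03 and 4.07). Of 7 metformin transport genes measured, 1 passed the filter, namely Slc29a4 (6.08 and 5.77, -0.31).

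**Figure D3:**
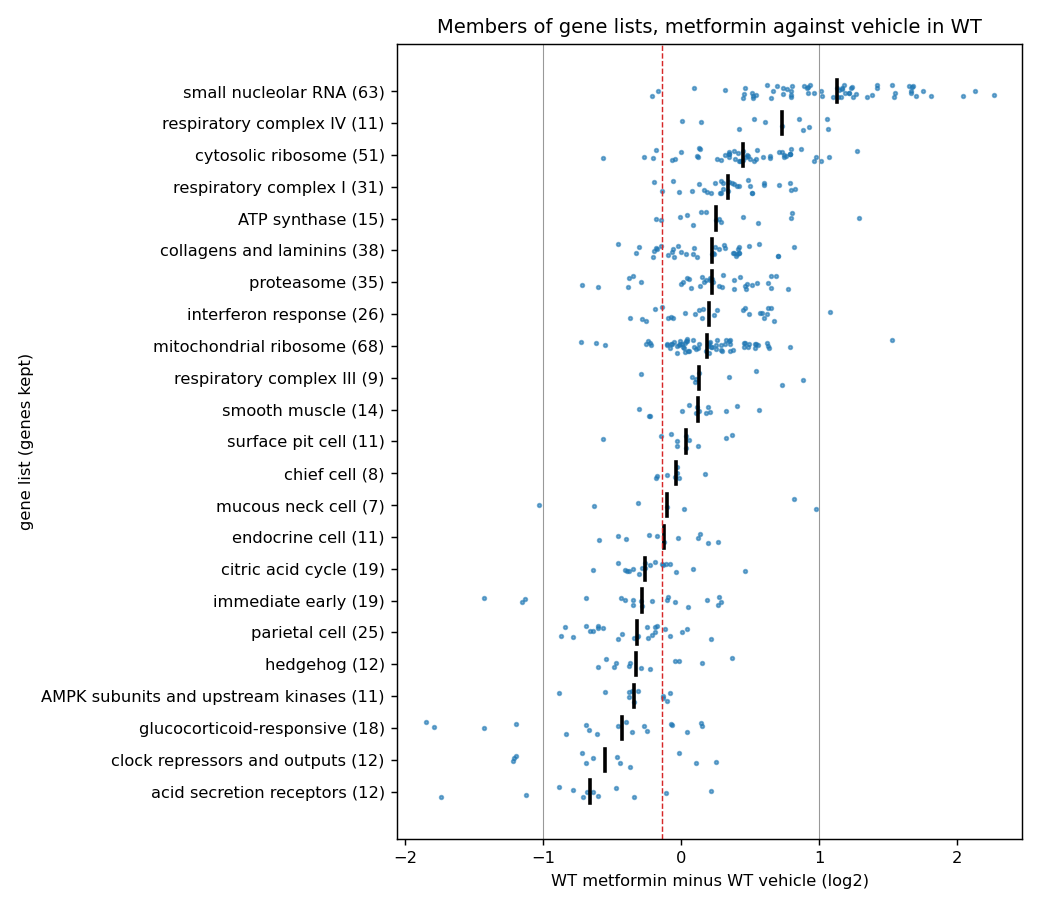
WT metformin minus WT vehicle (log2, horizontal axis) for members of 23 gene lists, 1 point a gene, with the number of genes kept in brackets; black bars are list medians, the dashed line is the median of all genes and grey lines mark 2-fold. List medians run from 1.13 for small nucleolar RNAs to -0.66 for acid secretion receptors, and within most lists the points cross the dashed line.

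The plot of list members shows that outside the small RNAs most members lie between the grey lines. In the glucocorticoid-responsive and immediate early lists a few far points sit apart from members close to the median of all genes.

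The 25 lowest named genes ranged from Bcl6 to Tmem117 (2.33-fold lower). Beside those given above they included the neurokinin receptor Tacr2 of smooth muscle (9.14 on WT vehicle, 7.77 on WT metformin, 6.74 on KO vehicle and 8.37 on KO metformin), Nudt12, which hydrolyses nicotinamide dinucleotides (8.64, 7.27, 6.15 and 7.29), and the monoamine oxidase Maob (8.31, 7.01, 6.23 and 7.16). The guanylate cyclase receptor Gucy2c was at 6.39, 5.13, 5.37 and 6.00. Genes of protein glycosylation among them were the glucosyltransferase Alg6 (-1.35) and Eogt, which adds N-acetylglucosamine to secreted proteins (-1.26). Others were Lrrc31 (-1.53), the kinase gene Stk32b (-1.45), the zinc finger gene Zscan26 (-1.43), Abitram (-1.41), the coactivator subunit Supt7l (-1.40) and Tmem209 (-1.38). Mospd1 (-1.35), Tmem50b (-1.29), Mblac2 (-1.26), the chemokine-binding receptor Ccrl2 (-1.23) and Tmem104 (-1.23) completed the group with Ap3s2, whose probe sets disagreed (-1.47 and 0.84). The second Ap3s2 probe set lay under the filter value on every array.

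The 25 highest named genes rested more often on 1 of several probe sets. Of these, 11 (44.0%) had more than 1 probe set, against 1 of the 25 lowest (4.0%) and 7.11% of protein-coding genes, and the gene was represented by the brightest. The other probe sets of Ptcd3 (1.79), Ep400 (1.30), Tlcd1 (1.18), Cnbd2 (1.27) and Cd209a (1.37) included values of -0.22, -0.36, -0.42, -0.14 and -0.11 in that order. Those of Cnbd2 and Cd209a lay under the filter value on every array. Ptcd3, Ep400, Snhg17 and Wdyhv1 (1.38, other probe set 0.17) also span an annotated snoRNA gene, which in Ptcd3 is Snord94. That is 16.0% of the 25, with Snhg17 a long non-coding RNA, against 4.0% of the 25 lowest. Of protein-coding genes kept 2.42% span one, as do 6.0% of those with several probe sets and 3 of 34 (8.82%) at least 2-fold higher. Coding genes that span one had a median WT difference of -0.20, and the others -0.15. Probe positions were not given in the sources used here. Whether such a probe set reads the messenger RNA or the snoRNA was not tested. Across 326 genes with at least 2 probe sets past the filter, the 2 brightest differed by 0.27 in the median and by 0.89 at the 90th percentile, and in 131 genes they differed in sign.

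Higher genes with a single probe set included Plac8, a gene of immune and epithelial cells (7.31 on WT vehicle, 8.74 on WT metformin, 9.20 on KO vehicle and 8.55 on KO metformin), and the calcium-binding protein S100a6 (8.99, 10.21, 9.69 and 9.12). The intestinal fatty acid binding protein Fabp2 was at 6.25, 7.58, 7.98 and 7.70. The carbonyl reductase Cbr3 was at 7.21, 8.44, 8.32 and 8.13, the methyltransferase-like gene Mettl7a3 at 5.02, 6.55, 5.86 and 5.54, and the glutathione transferase Mgst2 at 8.19, 9.26, 9.09 and 9.09. The list of xenobiotic metabolism had none of 40 genes at least 2-fold higher and 1 lower (Gstm3, -1.14), against 0.775% and 0.929% of all genes. Its median was -0.15, close to that of all genes. Further ones were S100a7l2 (1.41), Epop, a partner of Polycomb proteins (1.22), and Snf8, a subunit of the endosomal sorting machinery (1.14). Mcpt2, a protease of mucosal mast cells, was at 3.86 and 4.98 on the WT arrays, both under the filter value, and passed the filter through the KO arrays (7.25 and 6.95). Erdr1, named after its values were seen, was at 8.45, 10.75, 11.15 and 11.47, and its second probe set differed by 1.27.

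**Figure D4:**
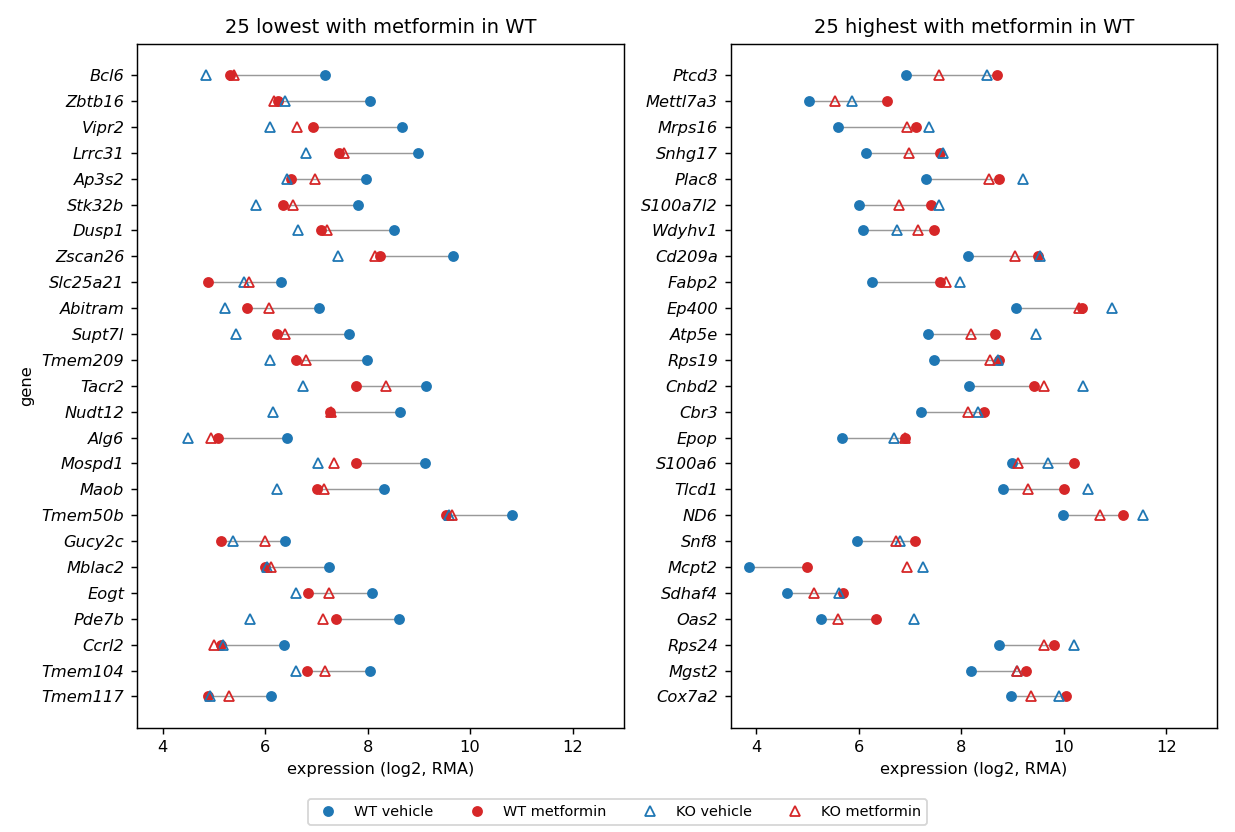
Expression (log2, horizontal axis) on each of the 4 arrays for the 25 lowest and the 25 highest named genes; filled circles are WT arrays, open triangles KO arrays, blue is vehicle and red metformin, with a grey line joining the WT values. In most genes the blue circle (WT vehicle) lies outside the other 3 symbols, as for Bcl6 at 7.17 against 4.84 to 5.40.

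In the plot of single genes across the 4 arrays, WT vehicle is at one end of the values for most genes. The spacing of the other 3 arrays varies. For Oas2 and S100a6 the WT vehicle and KO metformin arrays are the lower pair, for Mcpt2 both WT arrays are low, and for Pde7b the KO vehicle array lies furthest from the rest.

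The metformin difference in KO mice uses no array of the WT comparison and was set beside it. It ran the opposite way for most of these genes. Of the 86 genes at least 2-fold higher in WT, 77 were below 0 in KO with a median of -0.53, 18 (20.9%) were at least 2-fold lower there, and none was at least 2-fold higher. Of the 103 at least 2-fold lower in WT, 94 were above 0 in KO with a median of 0.66, 28 (27.2%) were at least 2-fold higher, and none was at least 2-fold lower. For comparison, 61.7% of all genes kept were above 0 in KO. Past 2-fold there were 2.44% upward and 0.613% downward, 3.06% in all. The genes shared in opposite directions were 10.3% of the KO higher list and 26.5% of the KO lower list. Across all genes kept the differences of both genotypes had a Pearson correlation of -0.40, which is a description over genes measured on the same 4 jointly normalised arrays. Genes are not independent replicates, and whether the responses differ between genotypes could not be tested with 1 array a group.

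**Figure D5:**
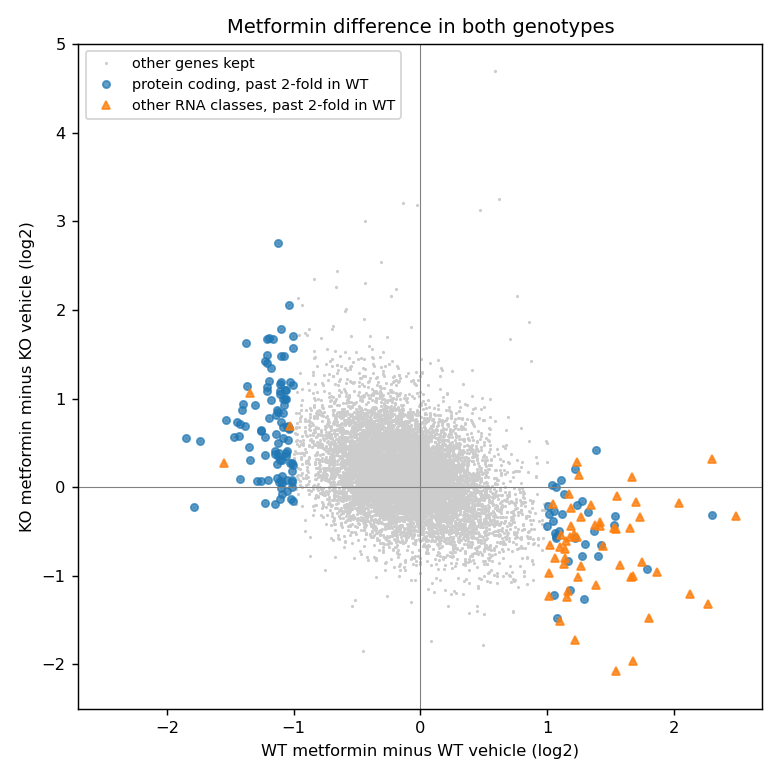
Metformin minus vehicle (log2) in WT (horizontal axis) and in KO mice (vertical axis) for all genes kept, with genes past 2-fold in WT in blue (protein coding) or orange (other RNA classes). Coloured points lie mainly in the upper left and lower right, with 94 of 103 lower genes above 0 in KO and 77 of 86 higher genes below 0.

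Several gene groups also had medians of opposite sign in the genotypes. SnoRNAs had a median of 1.13 in WT and -0.56 in KO, complex IV 0.73 and -0.57, complex I 0.34 and -0.32, and the interferon-stimulated genes 0.20 and -0.41. Acid secretion receptors had -0.66 and 0.48, and clock repressors -0.55 and 0.33. Other groups had the same sign in both: smooth muscle 0.12 and 0.44, and replication histones 0.17 and 0.30. Squamous epithelium had 0.53 and 2.40, but its genes kept had passed the filter partly through the KO arrays. Glp1r combined the WT difference of -1.13 with 2.75 in KO, and Mr1 combined -1.10 with 1.78. Zbtb16 (-0.22 in KO), Ccrl2 (-0.18) and Cd4 (-1.10 in WT and -0.01 in KO) were among the 9 lower genes that were below 0 in both.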

How the data were processed

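Total RNA of gastric corpus was labelled as biotinylated cDNA with an Affymetrix kit, per the labels' protocols. The submitters' processing notes name RMA (robust multi-array averaging) and Partek for the log2 expression values that the authors deposited. Versions, settings and annotation build were not given in the sources used here. RMA is fitted over all arrays together, so values of different arrays are not fully independent. Precision is limited by the number of arrays.

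Of 41345 probe sets, 23521 have 1 gene in the platform annotation and 23328 of those were found in RefSeq (GRCm38.p6), which gave symbols, classes and spans; 1814 with several genes and 16010 unnamed ones were not used for genes. For 1082 of 22180 genes with several probe sets, the brightest was taken. The filter was a mean over the 4 arrays at or above the median. Differences are WT metformin minus WT vehicle, called at 2-fold, with no test. The members and the 72 gene lists were chosen with earlier results of these data known. List counts are given against the median of all genes kept, above which 50% of genes lie by construction.

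Genes named are the 25 with the highest and the 25 with the lowest difference past 2-fold, without predicted, small RNA, pseudogene and receptor-cluster names, up to 3 highest and 3 lowest members of a list, and a set of genes given whatever their value; other named genes were chosen after their values were seen. Alternatives were the filter left out, set at the 75th percentile or taken on the WT arrays, cyclic loess, centring, the mean of probe sets, protein-coding genes alone, removal of the length trend (lowess, span 0.3) and a 1.5-fold rule. Calculations were tested on simulated data. Tools were R 4.3.3 with limma 3.58.1 and Python 3.11.15 with numpy 2.4.6, pandas 2.3.3, statsmodels 0.14.6 and matplotlib 3.10.9.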

Additional observations from a re-analysis of the deposited data

Results flagged for a closer look

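Several groups and genes differed with metformin in opposite directions in WT and KO mice, and the difference between genotypes was not tested. Relative to the median of all genes in KO mice, these lists that were higher in WT were lower: small nucleolar RNAs at -0.67, complex IV at -0.68, interferon response at -0.52, snoRNA host genes at -0.44, other short RNAs at -0.43, complex I at -0.43, all nuclear respiratory subunits at -0.42, ATP synthase at -0.42, proteasome at -0.37 and the cytosolic ribosome at -0.34. Acid secretion receptors (0.37) and interstitial cells of Cajal (0.34), lower in WT, were higher. Other lists, such as smooth muscle, were higher in both. So was squamous epithelium, whose genes kept passed the filter partly through the KO arrays. Among the 25 highest and 25 lowest named genes, those past 2-fold in both genotypes with opposite signs were Tacr2 (1.62 in KO), Pde7b (1.43), Nudt12 (1.14), Oas2 (-1.48), Atp5e (-1.26) and Tlcd1 (-1.16).

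Probe sets without a gene name, which no comparison above used, also differed between the WT arrays. The filter kept 4283 of them, of which 213 (4.97%) differed upward with metformin by 2-fold or more and 188 (4.39%) downward, with a median difference of 0.04.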

How the results depend on the processing

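No paired analysis was possible because each group has 1 array and the labels carry no replicate numbers. The number of genes at least 2-fold higher (86) became 148 with no filter, 34 among protein-coding genes, 29 after cyclic loess and removal of the length trend among them, and 396 at 1.5-fold. The number at least 2-fold lower (103) became 59 with the filter at the 75th percentile, 158 with each array centred on its median, 66 after loess and length removal, and 1005 at 1.5-fold. The lower genes were 54.5% of those past 2-fold, 40.4% with cyclic loess (102 higher, 69 lower) and 69.3% with centring (70 higher). Relative to all genes, parietal genes (-0.18) stood at -0.31 with no filter and -0.28 after length removal, the proteasome (0.36) at 0.22 and collagens and laminins (0.36) at 0.24 with no filter. Among lists at least 0.2 from the median of all genes, length removal turned the sign for genes encoded in mitochondrial DNA (0.23 to -0.27). It also did so for olfactory and vomeronasal receptors (0.32 to -0.042). Lists nearer that median changed sign too, among them endocrine (0.01 to -0.21), pancreatic acinar (0.14 to -0.09) and chief cell genes (0.10 to -0.05). Tuft cell genes went from 0.41 to 0.26 and squamous epithelium from 0.67 to 0.40. The cause was not tested. Of the 50 highest and lowest named genes all stayed past 2-fold with cyclic loess, 47 with centring, 40 with the mean of probe sets, and 47 of 49 after length removal. None turned sign. One array a group leaves biological and technical spread unmeasured.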
